A study of Mus musculus with 2 samples.

Results

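The Zbtb genes encode transcription factors that pair a BTB domain, through which the proteins dimerise and recruit partners, with zinc fingers that bind DNA. Their peaks of trimethylated lysine 4 of histone H3 (H3K4me3) were described in NOS1+ neurons sorted from the mouse small intestine. Members were all protein-coding RefSeq genes whose symbol starts with Zbtb and a number, which gave 41 of 21887 protein-coding genes, on 15 of the 21 chromosomes analysed. The genes were selected on their symbols and not on a threshold of any measured value, but widths and scores of these same peaks were known when the family was chosen, so they are given as a description, with no test. NOS1 is the neuronal nitric oxide synthase, and the neurons that carry it relax the muscle of the gut wall. The series holds 1 H3K4me3 immunoprecipitate and 1 input chromatin library, both from the same kind of sorted neurons. Only the peak list of the immunoprecipitate was used, so no difference described here has a replicate check. The sources used here do not give strain, age, sex, how NOS1 was detected for sorting, or the purity of the sort. One member, Zbtb8os, takes its name from its position opposite Zbtb8 genes and encodes archease, a cofactor of tRNA ligation, not a zinc finger protein.

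H3K4me3 is laid down around start sites, and in most cell types it marks CpG-rich promoters whether their genes are highly active or not. Many BTB zinc finger proteins repress transcription. The BTB domain binds corepressors such as NCOR1 and BCOR, which bring histone deacetylases, and in some members it binds the ubiquitin ligase scaffold CUL3. Members are best known from lymphocyte fates, while others act in neurons, at methylated DNA or at telomeres.

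All 41 genes had at least 1 peak over the model or within 1 kb of it (exact 95% Clopper-Pearson interval over genes 91.4 to 100%), where 67.0% of all protein-coding genes had one. The widest peak per gene had a median of 1917 bp (quartiles 1405 and 2545 bp), against 1515 bp (1064 and 2037 bp) over the 14665 protein-coding genes with a peak. The highest score per gene had a median of 169.8 (quartiles 159.1 and 202.8), against 152.6 (78.8 and 193.0). The score is the authors' value for each peak, on a scale that the sources used here do not state, and it serves only to rank peaks within the list. Widths ran from 388 bp at Zbtb8b to 3693 bp at the peak that Zbtb1 and Zbtb25 share, and highest scores from 10.4 at Zbtb8b to 275.9 at Zbtb4.

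The promoters that mark the ends of this range are shown as the 250 bases before the RefSeq start (GRCm38.p6, the assembly of mm10), each read 5′ to 3′ in the direction of transcription. Capitals mark CpG dinucleotides, because the presence of a peak at a listed start went with CpG content. Zbtb2 held the widest peak that no other gene shares, and Zbtb4 the highest score. Zbtb1 and Zbtb25 face away from each other within 1 peak. Zbtb8b was the lowest of the family both by the widest peak and by the highest score per gene. Zbtb32 had no peak at its listed starts.
Zbtb2, chr10:4388109-4388358, minus strand: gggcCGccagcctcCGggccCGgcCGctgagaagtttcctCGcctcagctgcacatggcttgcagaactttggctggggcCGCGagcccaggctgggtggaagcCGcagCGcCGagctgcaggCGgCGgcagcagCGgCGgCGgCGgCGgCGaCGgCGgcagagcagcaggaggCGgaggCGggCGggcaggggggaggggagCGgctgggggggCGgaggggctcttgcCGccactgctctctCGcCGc
Zbtb4, chr11:69765662-69765911, plus strand: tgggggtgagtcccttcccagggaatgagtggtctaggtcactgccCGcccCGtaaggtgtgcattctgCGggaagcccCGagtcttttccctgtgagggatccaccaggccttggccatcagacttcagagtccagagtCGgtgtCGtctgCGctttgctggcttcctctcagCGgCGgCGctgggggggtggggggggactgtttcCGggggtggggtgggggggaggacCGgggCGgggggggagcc
Zbtb1, chr12:76370270-76370519, plus strand: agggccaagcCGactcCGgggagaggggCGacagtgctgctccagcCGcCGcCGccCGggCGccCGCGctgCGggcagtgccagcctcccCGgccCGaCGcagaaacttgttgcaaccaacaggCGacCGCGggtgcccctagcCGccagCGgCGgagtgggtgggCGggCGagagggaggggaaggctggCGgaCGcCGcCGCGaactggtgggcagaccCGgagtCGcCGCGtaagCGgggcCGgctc
Zbtb25, chr12:76369561-76369810, minus strand: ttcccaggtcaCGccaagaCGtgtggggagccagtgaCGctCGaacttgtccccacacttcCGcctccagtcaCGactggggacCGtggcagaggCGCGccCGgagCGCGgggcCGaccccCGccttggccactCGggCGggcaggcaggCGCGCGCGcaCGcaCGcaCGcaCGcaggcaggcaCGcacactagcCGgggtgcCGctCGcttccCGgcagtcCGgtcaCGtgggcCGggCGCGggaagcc
Zbtb8b, chr4:129440819-129441068, minus strand: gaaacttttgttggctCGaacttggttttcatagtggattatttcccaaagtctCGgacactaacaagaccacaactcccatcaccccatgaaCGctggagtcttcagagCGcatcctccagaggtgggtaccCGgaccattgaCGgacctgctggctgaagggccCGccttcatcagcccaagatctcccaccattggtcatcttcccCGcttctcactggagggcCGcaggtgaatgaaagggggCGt
Zbtb32, chr7:30598910-30599159, minus strand: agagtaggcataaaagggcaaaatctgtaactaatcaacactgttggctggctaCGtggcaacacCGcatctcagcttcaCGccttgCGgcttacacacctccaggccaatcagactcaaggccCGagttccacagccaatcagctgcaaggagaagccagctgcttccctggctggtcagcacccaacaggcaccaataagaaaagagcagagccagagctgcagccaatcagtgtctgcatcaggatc
The stretch before Zbtb25 held 34 CpG, that before Zbtb1 33 and that before Zbtb2 28, with runs of CGG triplets in the last of these. Zbtb4, with the highest score of the family, had 13, Zbtb8b had 10 and Zbtb32 had 5. The sequence of Zbtb32 held 4 copies of CCAAT in the direction of transcription. Their first bases lay 144, 114, 56 and 24 bases before the start. Such a number was not particular to a start without a peak. Promoters of Zbtb3 and Zbtb5, counted on both strands, also held 4, and their starts lay inside a peak.

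Members whose widest peak also lay over a neighbour, or within 1 kb of its model, were set apart. There were 18 of these, and 23 members (56.1%) had a widest peak of their own, close to the 58.8% of all genes with a peak. The 23 unshared genes had a median width of 1703 bp, lower than over the whole family, against 1416 bp for the 8619 protein-coding genes whose widest peak is likewise unshared. Of the 20 members with a widest peak of at least 2000 bp (48.8%, against 26.2% of all genes with a peak), 11 shared that peak. On either side of this width stood Zbtb17 with 1917 bp and Zbtb49 with 2032 bp.

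**Figure D1:**
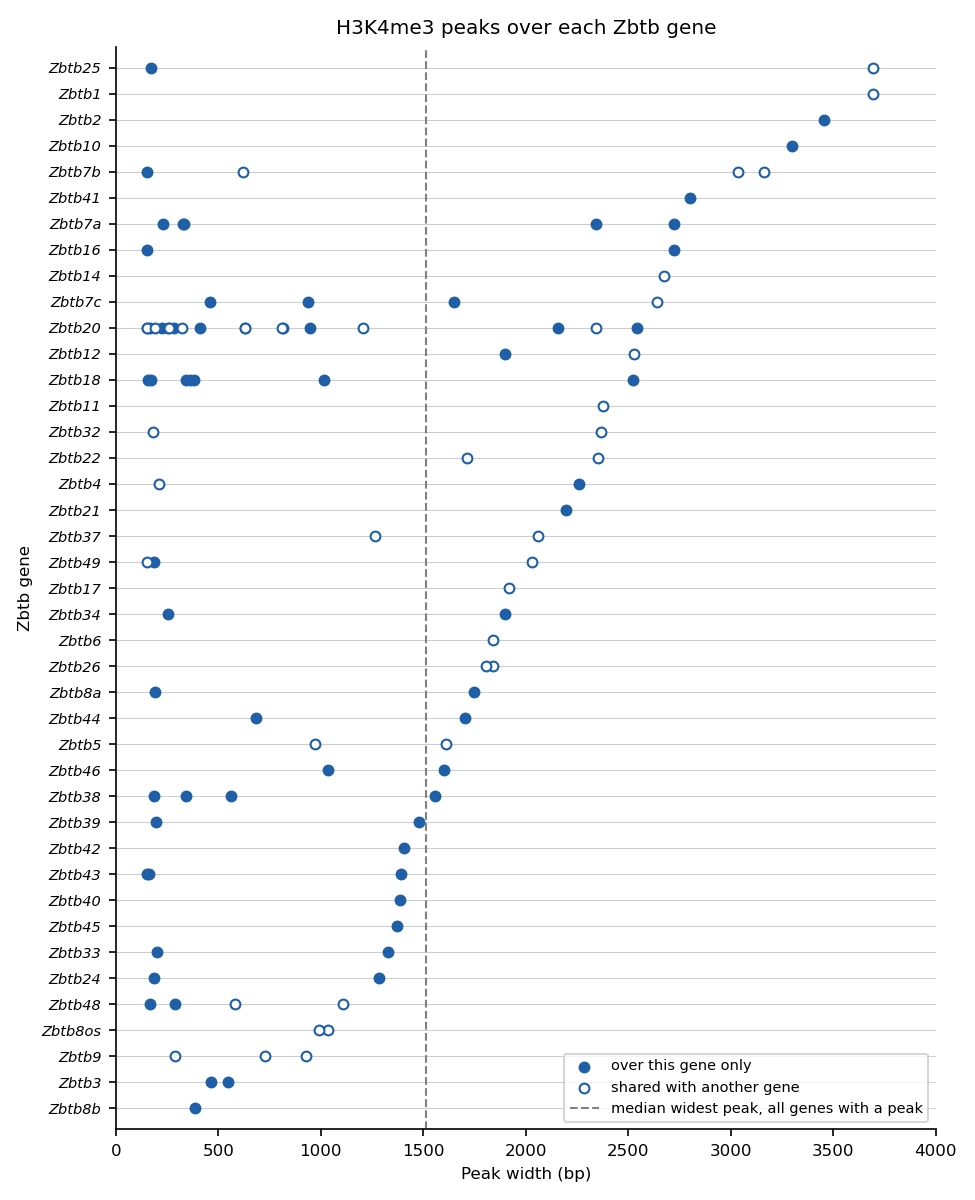
Width in bp (x axis) of every peak over each of the 41 Zbtb genes (y axis, ordered by the widest). Filled points are peaks over that gene only, open points also lie over or within 1 kb of another gene, and the dashed line is the median of 1515 bp for the widest peak of all genes with a peak. The widest peaks run from 388 bp at Zbtb8b to 3693 bp at Zbtb1 and Zbtb25, and 29 genes lie to the right of the line.

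In 2 pairs the neighbour was itself a Zbtb gene. Zbtb1 and Zbtb25, which stand head to head on chromosome 12 with overlapping models, lay under the single peak of 3693 bp from 76368602 to 76372294 (score 199.6). This peak reached 1774 bp into Zbtb1 and 958 bp into Zbtb25 from their first listed starts. Zbtb6 and Zbtb26 follow each other on chromosome 2, and the peak of 1840 bp (score 164.5) at the start of Zbtb6 lies 314 bp from the far end of Zbtb26. At its own start Zbtb26 had a separate peak of 1806 bp with a score of 166.3, which also lies over or within 1 kb of Rabgap1. Each of the pair thus had a peak at its start.

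For 3 further members the widest peak lay outside the model, while a narrower one held the listed start. Zbtb12 had 1900 bp (score 160.3) at its start, and the peak of 2528 bp lay 863 bp beyond its far end, at Ehmt2, which encodes the H3K9 methyltransferase G9a. Zbtb37 had 1264 bp (score 168.1) at its start, and 2060 bp (143.0) beyond it. Both also lie over or within 1 kb of Gas5, a host gene of small nucleolar RNAs. Zbtb8os had 991 bp (95.5) at its start and 1035 bp (178.2) outside the model. Both also lie over or within 1 kb of the neighbouring Rbbp4, which encodes a histone-binding protein. Zbtb22 likewise had 1712 bp (105.4) at its start, which lies within 1 kb of Daxx, and a wider one of 2351 bp (164.4) across its far end, at Tapbp. At each of these genes the peak at the start was thus narrower than the widest peak near the model.

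Zbtb32 was the one member with all its peaks at a neighbour and none at a listed start. Its peaks of 2368 bp (score 242.7) and 182 bp (9.38) both lay at the lower end of the model beside Kmt2b, which encodes an H3K4 methyltransferase. Zbtb32 is read from the minus strand, so this is its 3′ side, and from its listed starts the nearest peak was 3069 and 9036 bp away. Other neighbours of widest peaks were Lyar at Zbtb49 (2032 bp, 202.8), Tas1r1 at Zbtb48 (1107 bp, 185.4), the predicted genes Gm42337 at Zbtb17 (1917 bp, 180.0) and Gm49894 at Zbtb14 (2674 bp, 169.8), and noncoding genes at Zbtb5, Zbtb7b, Zbtb7c and Zbtb11.

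RefSeq start sites, with strand, were found in the promoter table for 36 of the 41 genes, at 49 positions. Of the 36 genes, 33 (91.7%) had a peak within 1 kb of a listed start, against 63.0% of all protein-coding genes with a listed start. In the same 33 genes a listed start lay inside a peak (55.9% of all genes). Zbtb20, Zbtb32 and Zbtb46 were the exceptions. The widest peak at a start had a median of 1840 bp over the 33 genes, from 388 to 3693 bp, against 1506 bp over 11024 genes. For Zbtb7c, Zbtb10, Zbtb16, Zbtb40 and Zbtb48 the table lists no start, and each had a peak across an end of its model.

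**Figure D2:**
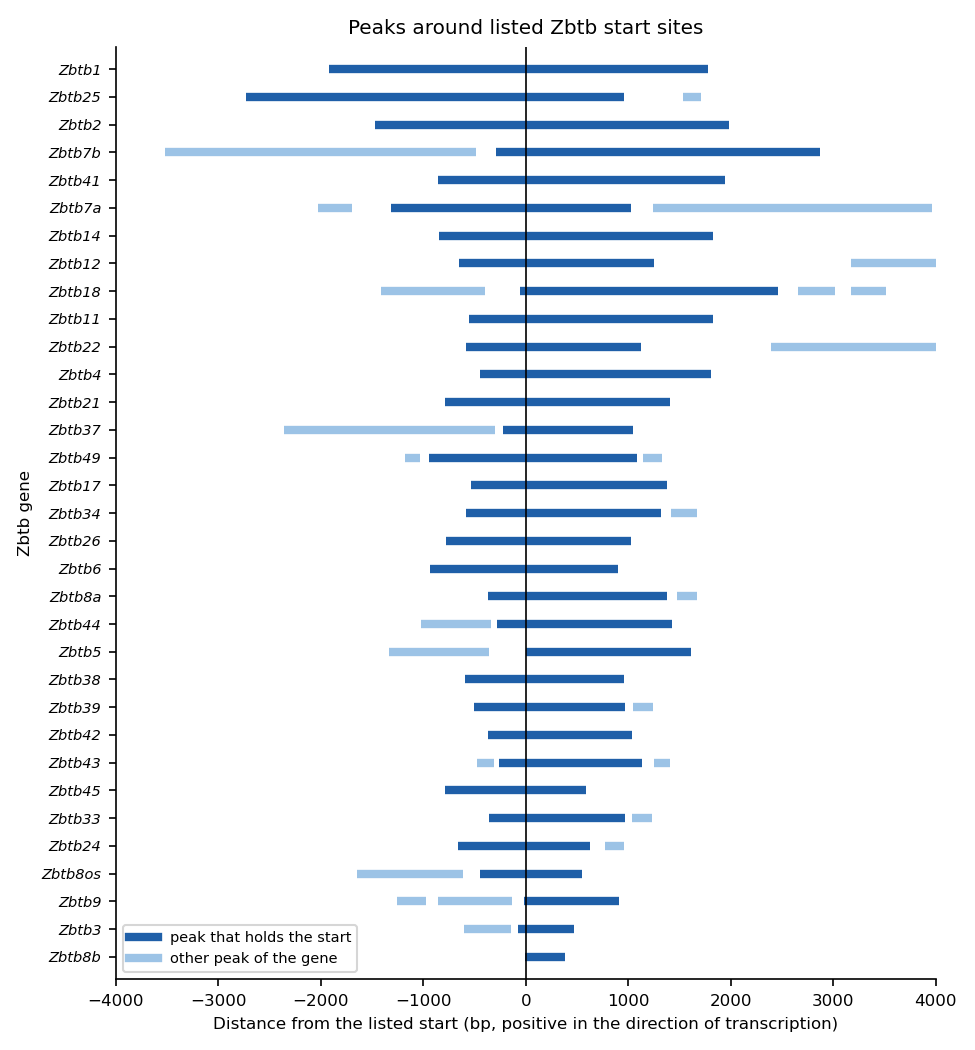
Peaks of the 33 Zbtb genes with a listed start inside a peak, drawn from 4000 bp before to 4000 bp after 1 listed start per gene (x axis, bp, positive in the direction of transcription) and ordered by widest peak. Dark bars hold the start and pale bars are other peaks of the gene, cut at the edges of the plot. Most dark bars reach further to the right of the start than to the left.

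Peaks at starts extended further into the gene than before it. Over the 42 listed starts inside a peak, the peak reached a median of 1065 bp downstream (quartiles 872.5 and 1421.5 bp) and 585.5 bp upstream (311.5 and 941 bp). The downstream arm was the longer at 30 of the 42 (71.4%), while it was the longer at 81.5% of the 11555 such starts of all protein-coding genes, whose medians were 1019 and 473 bp. Starts of 1 gene share a peak, so these are not independent. Zbtb25 reached furthest upstream (2734 bp from its first start), across the start of Zbtb1, and Zbtb7b had the longest arm into the gene (2873 bp).

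CpG content of the promoter went with the presence of a peak at the start. The ratio of observed to expected CpG in the 300-base promoters was at least 0.6, here called CpG-rich, at 30 of the 36 genes (83.3%), against 50.9% of all genes with a listed start. All 30 had a peak at a start, as did 96.2% of CpG-rich genes in general, so their share was near the background. Of the 6 other members 3 had a peak (28.7% of CpG-poor genes). Zbtb3, Zbtb7b and Zbtb8b, with ratios of 0.52, 0.51 and 0.51, had a peak, whereas Zbtb32 with 0.43, Zbtb20 with 0.21 and Zbtb46 with 0.05 had none. The listed starts of these last 3 genes lie well inside their models, as does that of Zbtb8b, so the ratios describe internal starts. On the 5′ side of these starts Zbtb20 and Zbtb46 had peaks, and Zbtb32 had none. Within the CpG-rich class the median width at the start was 1870 bp for the members and 1583 bp for all genes, and the median score of these peaks 168.7 against 164.8.

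**Figure D3:**
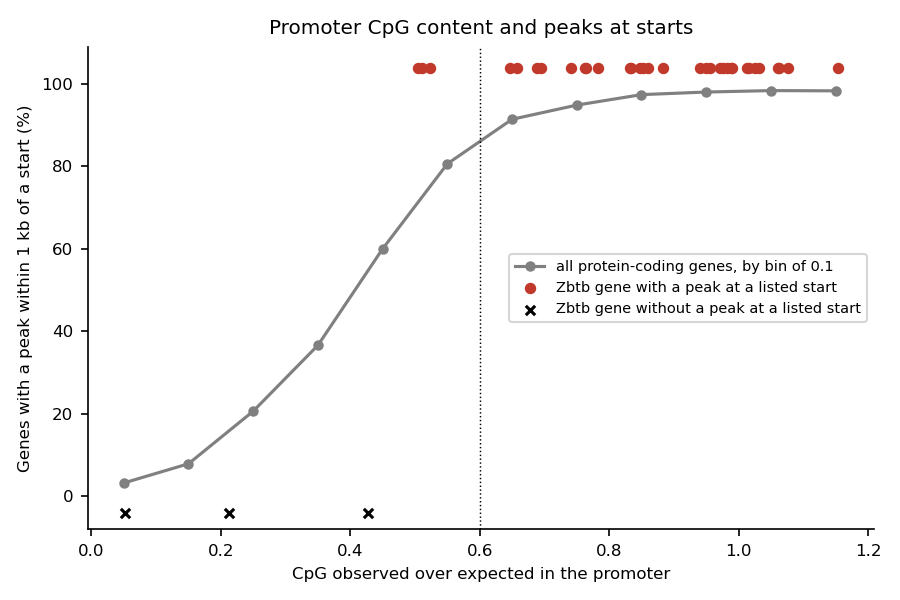
Share of protein-coding genes with a peak within 1 kb of a listed start (y axis, %) by the observed over expected CpG ratio of the promoter (x axis, bins of 0.1 up to 1.2; the highest ratio of a gene's promoters was used), as grey points joined by a line. Circles above and crosses below the axis range of 0 to 100% mark the Zbtb genes with and without a peak at a start, and the dotted line is the ratio of 0.6. All 3 crosses lie left of it, and the grey line rises from 3.19% in the lowest bin to 98.4% in the highest. The crosses stand for listed starts that lie inside the gene models.

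The members with known roles in neurons and glia were Zbtb18, Zbtb20 and Zbtb45, and they differed widely. Zbtb18 encodes RP58, a repressor needed for the differentiation and migration of cortical neurons. It carried 7 peaks over a model of only 8414 bp: 1015 bp (score 188.5) before the start, 2523 bp (133.6) from the start into the gene, and 5 of 157 to 379 bp with scores from 3.11 to 18.9 further in. Joined across gaps under 1 kb, the widest stretch spanned 4931 bp. Zbtb45, a short gene on chromosome 7, had 1 peak of 1373 bp (167.6).

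Zbtb20, which encodes a repressor that sets hippocampal neuron identity and acts in liver, held 19 peaks, the most of the family, over a model of 758704 bp, 9 of them also over or within 1 kb of noncoding genes. They fell into 9 regions when peaks closer than 1 kb were joined. At the lower end of the model, its 5′ side, lay 816 bp (score 95.2) and 1204 bp (77.9). A peak of 2344 bp (77.6) began 31147 bp inside. The widest, of 2545 bp (78.8) on chromosome 16 from 43502698 to 43505242, was followed after 103 bp by another of 2157 bp (34.0), and the joined region there spanned 6262 bp. The 1 listed start of Zbtb20, at 43247284, lay 10952 bp from the nearest peak, of 947 bp with a score of 12.1. Its highest score ranked 10375 among the 14665 genes with a peak. Of its 19 peaks 4 were at least 1000 bp wide and the other 15 were narrower.

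The methyl-CpG binding members Zbtb4, Zbtb33 and Zbtb38 stood at both ends of the scores. Zbtb4 had 2258 bp with a score of 275.9, rank 97 among genes with a peak. Zbtb33, the X-linked gene of Kaiso, had 1329 bp (86.3), and its promoter had the highest CpG ratio of the family, 1.15. No other member lies on the X chromosome, and whether the chromosome bears on the score was not tested. Zbtb38 had its main peak of 1556 bp (135.6) at its other listed starts. Its first listed start, at the upper end of the model and 11231 bp away, had no peak.

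The 7 members known for blood cell fates had a median width of 2722 bp, from 1601 bp at Zbtb46 to 3693 bp, although Zbtb1 and Zbtb25 share theirs and that of Zbtb32 lies at Kmt2b. Zbtb1 is needed for lymphoid development. Zbtb7b encodes ThPOK, the factor of the helper T cell lineage, and had 3164 bp (score 148.2) at its first start and 3035 bp (102.4) before it, 192 bp apart and spanning 6391 bp together. Zbtb7a encodes LRF, a factor of B cell and erythroid development. It had 2343 bp (220.3) at the start and 2722 bp (145.7) further in, and with the narrow peaks around them the joined stretch reached 6818 bp, the longest of the 41 genes. Zbtb16, the gene of PLZF, known from innate-like T cells and germline stem cells, had 2722 bp (158.9) across the upper end of its model of 184429 bp.

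Zbtb46, a marker of dendritic cells and endothelium, had peaks of 1601 bp (score 180.7) and 1037 bp (60.7), 59 bp apart and inside the model. They lay on the upstream side of its 1 listed start, with 33542 bp between. Markers of leukocytes and endothelium were read beside these genes. Of 6 leukocyte markers 3 had a peak over the model, with scores of 7.18 at Ptprc and 149.8 and 164.5 at Cd68 and Cd79a, whose peaks lie at other genes too, while Cd3e, Itgam and Adgre1 had none. Of 5 endothelial markers 4 had one, with scores from 7.63 to 91.5, and Cdh5 had none. By the same rule 67.0% of all protein-coding genes had a peak. The part of such cells in the peaks of blood cell factors was not tested. More cells with the mark and more mark per cell cannot be told apart in a sorted population.

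The 5 members that act on growth had highest scores from 154.5 to 256.5, against a median of 152.6 over all genes with a peak. Zbtb2, a repressor in the p53 pathway, had a single peak of 3456 bp with a score of 256.5, on chromosome 10 from 4386125 to 4389580, and ranked 515 by width and 308 by score. Zbtb17, the gene of the MYC partner Miz-1, had 1917 bp (180.0), Zbtb49 2032 bp (202.8) and Zbtb5 1611 bp (164.8). Zbtb7c, related to Zbtb7a and Zbtb7b, had 2640 bp (154.5) across the lower end of its long model and 3 further peaks inside, of 460 to 1652 bp with scores from 10.5 to 60.1.

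The members known from telomeres and centromeres had widest peaks narrower than the median of 1515 bp over all genes with a peak, except Zbtb10. Their highest scores ran from 166.2 to 208.2, against a median of 152.6 over all genes with a peak. Zbtb48, whose product TZAP binds telomere repeats, had 1107 bp (score 185.4). Zbtb40 had 1385 bp (208.2), and Zbtb24, the gene of a centromere instability syndrome, 1285 bp (207.5). The narrow width of Zbtb48 depended on a split, with a peak of 580 bp lying 118 bp from its widest. Joined across gaps under 1 kb, the peaks of Zbtb48 spanned 2542 bp, above the 1816 bp median of all genes treated alike. Those of Zbtb24 and Zbtb40 spanned 1614 and 1385 bp, below it. Zbtb10 had a single peak of 3299 bp (166.2) across the lower end of its model, the widest after Zbtb2 among unshared peaks.

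The remaining 19 members, less well known, had a median width of 1840 bp, from 388 to 2801 bp. Zbtb11, required for mitochondrial function, had 2377 bp with a score of 254.8, and Zbtb21 2198 bp (225.7). Zbtb41 had the widest of them, 2801 bp (184.8). Zbtb43 (1392 bp, 217.4), Zbtb34 (1901 bp, 186.7), Zbtb44 (1703 bp, 161.0) and Zbtb39 (1477 bp, 159.1) each had a main peak of their own at the start. Zbtb42, a close relative of Zbtb18, had 1405 bp (93.6).

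The 3 genes numbered 8 share a stretch of chromosome 4 and differed strongly. Zbtb8a had 1747 bp (score 98.9) and Zbtb8os 991 bp (95.5) at their starts. Zbtb8b had 1 peak of 388 bp with a score of 10.4, which began 9 bp before its start, from 129440440 to 129440827. Zbtb8b ranked 13938 by width and 14068 by score among 14665 genes and was the only member outside the 50% of peaks with the highest scores, which held 97.6% of the members and 86.2% of all genes with a peak. Next to it in width alone stood Zbtb3, on chromosome 19, with peaks of 548 bp (120.9) and 466 bp (45.2), 59 bp apart.

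**Figure D4:**
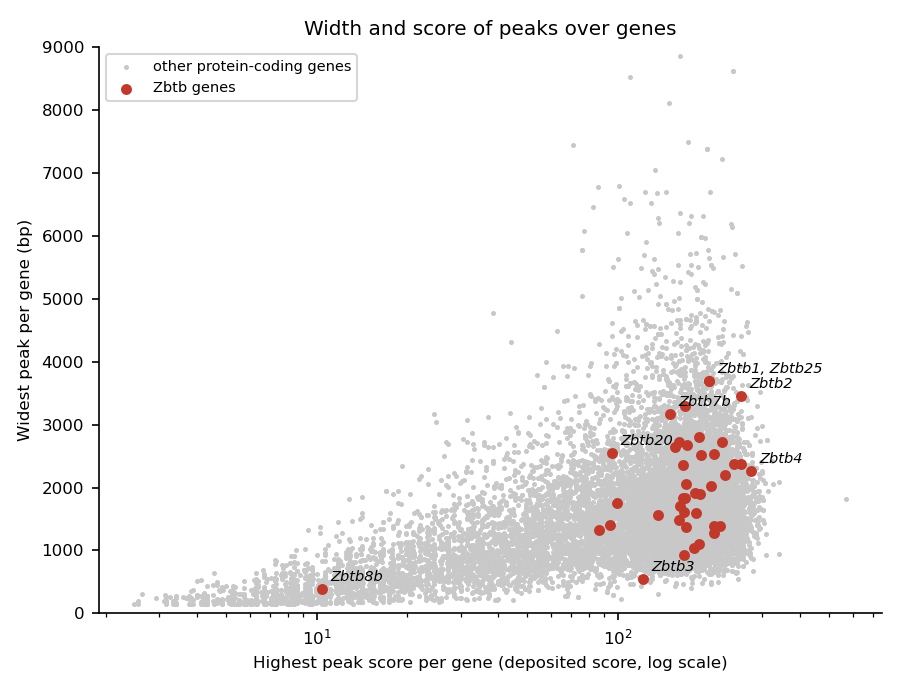
Widest peak per gene (y axis, bp) against the highest score per gene (x axis, log scale, the deposited score) for the Zbtb genes (red) and all other protein-coding genes with a peak (grey). Of the 41 Zbtb genes, 34 lie between scores of 140.8 and 275.9, Zbtb8b lies far to the left with 388 bp and 10.4, and the Zbtb genes reach at most 3693 bp while other genes reach 8862 bp.

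Scores of the family were concentrated in the upper part of the list. The highest score of 34 members (82.9%) lay within the top 25% of all peaks, from 140.8 upward, against 55.6% of all genes with a peak. Zbtb7b (148.2) stood just above this limit and Zbtb38 (135.6) just below it. The other members below it were Zbtb3, Zbtb8a, Zbtb8b, Zbtb20, Zbtb33 and Zbtb42. Among the 34 alone, the median of the highest score was 182.8, slightly under the 188.8 of all genes with a peak in that part of the list. Width and score rose together only loosely, with a Spearman correlation of 0.30 over the 41 genes, which hold 39 distinct widest peaks of 1 library, and 0.45 over all genes with a peak.

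Several wide domains were split. In all, 12 members (29.3%) carried neighbouring peaks of at least 400 bp with less than 500 bp between them, against 18.6% of all genes with a peak, limits that were chosen after the values were seen. At Zbtb3, Zbtb5, Zbtb7b, Zbtb9, Zbtb18, Zbtb37, Zbtb44 and Zbtb8os another such peak lay just before the one that holds the start, with 59 to 359 bp between. At Zbtb9 both sides were alike, with 727 bp (score 165.3) and 927 bp (164.8), and at Zbtb44 they were unequal, with 686 bp (83.8) and 1703 bp (161.0). In total the family held 103 distinct peaks, of which 48 were at least 1000 bp wide. Another 29 were under 300 bp, with scores of at most 15.4. More than 1 peak lay over 28 members (68.3%), against 53.3% of all genes with a peak.

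The peaks nearest the edge of the 1 kb margin, on either side, were weak. Just inside it lay a peak of 153 bp (score 4.85) at 983 bp from Zbtb49, and just outside one of 165 bp (6.28) at 1060 bp from Zbtb4. Strong peaks lay a little further from the edge. The peak of 2528 bp (208.3) at 863 bp from Zbtb12 was counted through the margin. It set that gene's widest peak and highest score, which were otherwise 1900 bp and 160.3. Outside, a peak of 1372 bp (118.6) at 1304 bp from Zbtb41 was not counted. The widest peaks of Zbtb8os, Zbtb26, Zbtb32 and Zbtb37 also lay outside their models, closer to them. No member owed its only peak to the margin. Within 1 kb of the model's ends 37 of the 41 genes (90.2%) had a peak, against 61.4% of all genes. Zbtb8b, Zbtb11, Zbtb38 and Zbtb46, whose peaks lie further inside, were missed there.

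Short sequence motifs in the promoters were counted on both strands. The GC box GGGCGG, bound by SP and KLF factors, occurred in 33 of the 49 promoters (67.3%), against 46.2% of all 21263 promoters and 74.1% of the CpG-rich ones. The palindromic NRF1 site stood in 3 promoters, at both listed starts of Zbtb17 and at Zbtb41 (6.12%, against 1.33% of all and 2.59% of CpG-rich promoters). The palindrome bound by Kaiso was in 0 of the 49, in 0.67% of all promoters and in 1.31% of CpG-rich ones, and Kaiso's unmethylated site TCCTGCNA in 4, at starts of Zbtb18 and Zbtb37 (8.16%, against 4.74% of all and 4.09% of CpG-rich promoters). CCAAT was in 30.6%, against 38.2% of all and 36.5% of CpG-rich promoters. The E-box CACGTG was in 12.2%, against 7.84% and 11.4%, and the CRE TGACGTCA in 4.08%, against 2.23% and 3.72%. The ETS site CCGGAAGT was in 8.16%, above the 5.15% of all and below the 9.05% of CpG-rich promoters. The TATA box TATAAA was in 12.2%, against 12.6% of all and 5.58% of CpG-rich promoters, and its 6 promoters belong to only 3 genes, Zbtb18, Zbtb43 and Zbtb8os. CACGTG and TGACGTCA read the same on both strands. Some of these counts rest on overlapping windows of 1 gene.

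The BTB zinc finger genes that carry other symbols were also all marked, 8 of 8, with a median width of 2929.5 bp. Of all protein-coding genes 67.0% had a peak, and of CpG-rich ones 96.2% had one at a start. The median CpG ratio of the 7 genes here with a listed start was 0.86. Patz1 had 4564 bp (score 265.9), Bcl6 4330 bp (191.8), Mynn 3865 bp (203.6) and Hic1, a tumour suppressor gene, 3851 bp (112.4), each wider than any peak over a Zbtb gene, with those of Bcl6 and Mynn shared with neighbours. Hic2 had 2008 bp (196.3), Gzf1 1166 bp (149.4) and Zfp131 1144 bp (148.8). Bcl6b, the paralog of Bcl6, had only 717 bp (13.1).

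Genes of the partners were marked throughout. All 25 corepressor and CUL3 partner genes had a peak, against 67.0% of all protein-coding genes. Among CpG-rich genes in general 96.2% had a peak at a start. The median CpG ratio of the partner genes, over the 20 with a listed start, was 0.95. Their widest peaks had a median of 2065 bp and their highest scores one of 178.6. The widest were Bcor with 4619 bp (score 95.1), Ctbp2 with 3713 bp (198.4) and Tbl1xr1 with 3168 bp (171.5). Other BTB families had nearly as high a share with narrower peaks. Of 37 Klhl genes, whose BTB domain is joined to Kelch repeats, 35 had a peak (94.6%), with a median of 1489 bp and a median score of 123.1. Of 22 Kctd genes 21 had one (95.5%), with 1494 bp and 155.2. Zinc finger genes named Zfp had one in 358 of 397 cases (90.2%), with 1371.5 bp and 158.6. These differences were not tested, since there is 1 library.

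**Figure D5:**
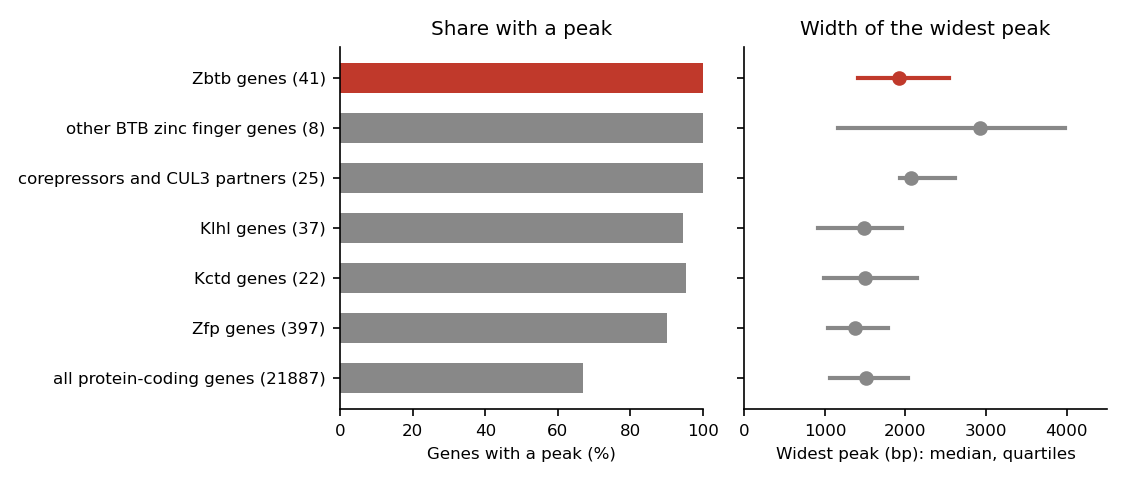
Share of genes with a peak over the model and 1 kb to each side (left, %) and width of the widest peak of the genes with one (right, bp, point for the median and line for the quartiles) for the Zbtb genes and 6 other sets, with the number of genes in brackets. The Zbtb genes have a share of 100% and a median of 1917 bp, against 67.0% and 1515 bp for all protein-coding genes.

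Markers of cell types gave the setting of the sort. All 6 enteric neuron markers had a peak, with highest scores from 11.6 to 104.8, lower than those of most Zbtb genes. Of 5 nitrergic markers 4 had one, and most were weak. Nos1 itself, the gene of the sort, had 1 peak of 183 bp with a score of 13.0 that also lies at another gene, Gal had a score of 4.67, Npy 26.0 and Etv1 146.8, and Vip had none. Peaks lay over 4 of 5 epithelial markers (scores from 19.8 to 32.9, with Vil1 at none), and over all 5 of glia (26.9 to 102.2), of smooth muscle (9.42 to 32.6) and of interstitial cells and fibroblasts (9.48 to 54.7). Defining markers of these other cell types thus carried peaks too, but so did 67.0% of all protein-coding genes by the same rule. Counts over 5 or 6 genes therefore say little about which cells were present. The part of other cell types in the peaks over Zbtb genes was not tested.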

How the data were processed

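H3K4me3 ChIP-seq peaks of 1 library of sorted NOS1+ small intestinal neurons were analysed. The submitters' processing notes name BWA, Picard, MACS2 and the build mm10, with neither roles nor versions. MACS2 called the peaks from a paired-end library, per the file headers. The deposited score of each peak is used as the authors gave it. The sources used here do not state its scale, the peak threshold or how duplicates were treated. The list held 29924 peaks between 153 and 8862 bp in width, and scores ran from 2.0 to 702.6. Read counts were not used, so the depth is unknown and no interval for depth was computed.

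Gene models, strands and promoters (250 bases before to 50 after a start) came from RefSeq on GRCm38.p6. A gene had a peak when at least 1 bp lay over its model with 1 kb to each side. A peak was shared when another gene of any kind met the same condition. The interval of a share is an exact Clopper-Pearson interval over genes and does not cover variation between animals or libraries. It treats genes as independent, although some members share a peak and the members are all genes that met the rule, not a sample. There is no test, since there is 1 library. The members and lists were chosen with earlier results of these data known. Any member could be named, and other genes only as neighbours sharing a peak, as listed BTB zinc finger genes, as the 3 widest partner genes or as cell type markers. A few neighbouring genes are counted but not reported here by name. The overlap code was tested on simulated data (200 of 200 planted peaks found with their width among 21887 genes). Of the planned sequence features, protein length and zinc finger counts were not computed. Python 3.11.15, NumPy 2.4.6, SciPy 1.17.1 and Matplotlib 3.10.9 were used.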

Additional observations from a re-analysis of the deposited data

How the results depend on the processing

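Under 13 alternatives (peak subsets by score or width, margins of 0, 500 and 2500 bp, ends or listed starts only, a larger overlap, merging, and other member sets), the median width of the Zbtb genes stayed above that of protein-coding genes treated the same way, or of all of them where only the members changed, in 13 of 13. Their share with a peak stayed above that of all genes in each of the 9 alternatives in which it could fall (the wider margin, merging and leaving out members could not lower it). The share was 82.9% among the best-scored 25% of peaks (all genes 37.3%) and 90.2% with 1 kb around both ends only (61.4%). The median width was 2449 bp with peaks closer than 1 kb merged (1816 bp) and otherwise 1703 to 2046 bp. The median highest score ran from 166.2 to 182.8 and was above that of all genes in 12 of 13, the exception being the best-scored 25% (182.8 against 188.8). Between 16 and 27 genes had an unshared widest peak. No paired analysis was possible because there is 1 library of each kind and the result comes from no test, and no library could be left out. With unknown depth, the lack of a peak at a listed start says only that none was called there.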
